A study of Mus musculus with 16 samples.

Results

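The genes described here encode 8 proteins that build elastic fibres or cross-link the extracellular matrix: Fbn1, Mfap5, Ltbp2, Fbln5, Eln, Lox, Loxl1 and Loxl2. They were chosen by name, with earlier results of these data known. The brightest probe whose RefSeq transcript maps to each symbol stood for the gene. All 8 had a probe, 13 probes in total, among 21154 genes with a probe, and all 8 were among the 14063 genes tested. The heart of 16 female mice was measured on one-colour Agilent arrays, 1 array per mouse, from ventricular tissue. The 4 groups held 4 independent mice each: nulliparous Npr1+/+ (wild-type), lactating Npr1+/+, nulliparous Npr1-/- (knockout) and lactating Npr1-/-. Lactating mice were taken at 2 weeks of lactation, and nulliparous mice had never given birth. Npr1 encodes the guanylyl cyclase receptor for the heart's natriuretic peptides, and the design asks how lactation and the loss of this receptor bear on heart transcripts. Of age, strain and the making of the allele the labels say nothing, and they name no agent given to any group.

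Elastic fibres have a core of cross-linked elastin laid on a scaffold of fibrillin microfibrils. Tropoelastin, the product of Eln, is guided onto microfibrils by fibulins and other adaptor proteins, and lysyl oxidases then oxidise its lysines so that neighbouring chains bond. The same oxidases cross-link fibrillar collagen, and in the heart both networks lie around vessels, in the valves and between the muscle cells. They give the wall recoil and stiffness.

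Levels are log2 signals less the upper quartile (75th percentile) of their array, so a difference of 1 is a doubling. They are compared between groups for 1 probe and never between probes. That quartile lay between 164.7 and 347.4 intensity units across arrays, and 48.52% to 58.56% of probes were well above background. Well above background on each of the 16 arrays were the probes of 7 of the 8 genes, while the probe for Lox was so on 8. The ventricular markers Myl2, Myl3 and Irx4 were well above background on all 16 arrays, as was the atrial marker Myl4, while the atrial markers Myl7 and Sln were so on 10 and 13. One array, nulliparous knockout replicate 4, stood apart from the other nulliparous arrays on the first principal component, at 14.54 against -46.91 to -39.33, with lactating arrays at 27.64 to 41.93. The probe for Npr1 was dim, with group means of -4.11 to -3.91, was not tested, and checks nothing about the genotype labels. Each slide held 2 arrays of every group and was scanned on its own, so slide and scan cannot be told apart. Values within each slide are given below beside the pooled ones.

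Most of these genes were higher in lactating than in nulliparous hearts, in both genotypes. Lox passed the filter on dim genes through its lactating groups alone, so the counts here cover the 7 genes measured on all 16 arrays, and Lox is given as a bound below. In wild-type mice 6 of the 7 rose and none fell at a limma adjusted p under 0.05, where 50.3% of all genes tested were called and 31.8% were called higher. In knockout mice 6 also rose and none fell, where 44.1% of all genes were called and 25.5% were called higher. Fbn1, Mfap5, Loxl1, Loxl2 and Fbln5 rose in both genotypes, Eln was called in wild-type mice alone, and Ltbp2 in knockout mice alone. The median change over the 7 genes was 1.18 in wild-type and 1.14 in knockout mice on the log2 scale, beside 0.10 and 0.06 over all genes tested. With Lox included at its bound, the medians were 1.16 and 1.07. All lactating arrays lay above all nulliparous arrays for 6 of the 7 genes in wild-type mice (30.4% of all genes) and for 5 in knockout mice (19% of all genes). In tissue RNA of this kind, a change in the number of cells that make a transcript and a change in the amount per cell cannot be told apart.

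**Figure D1:**
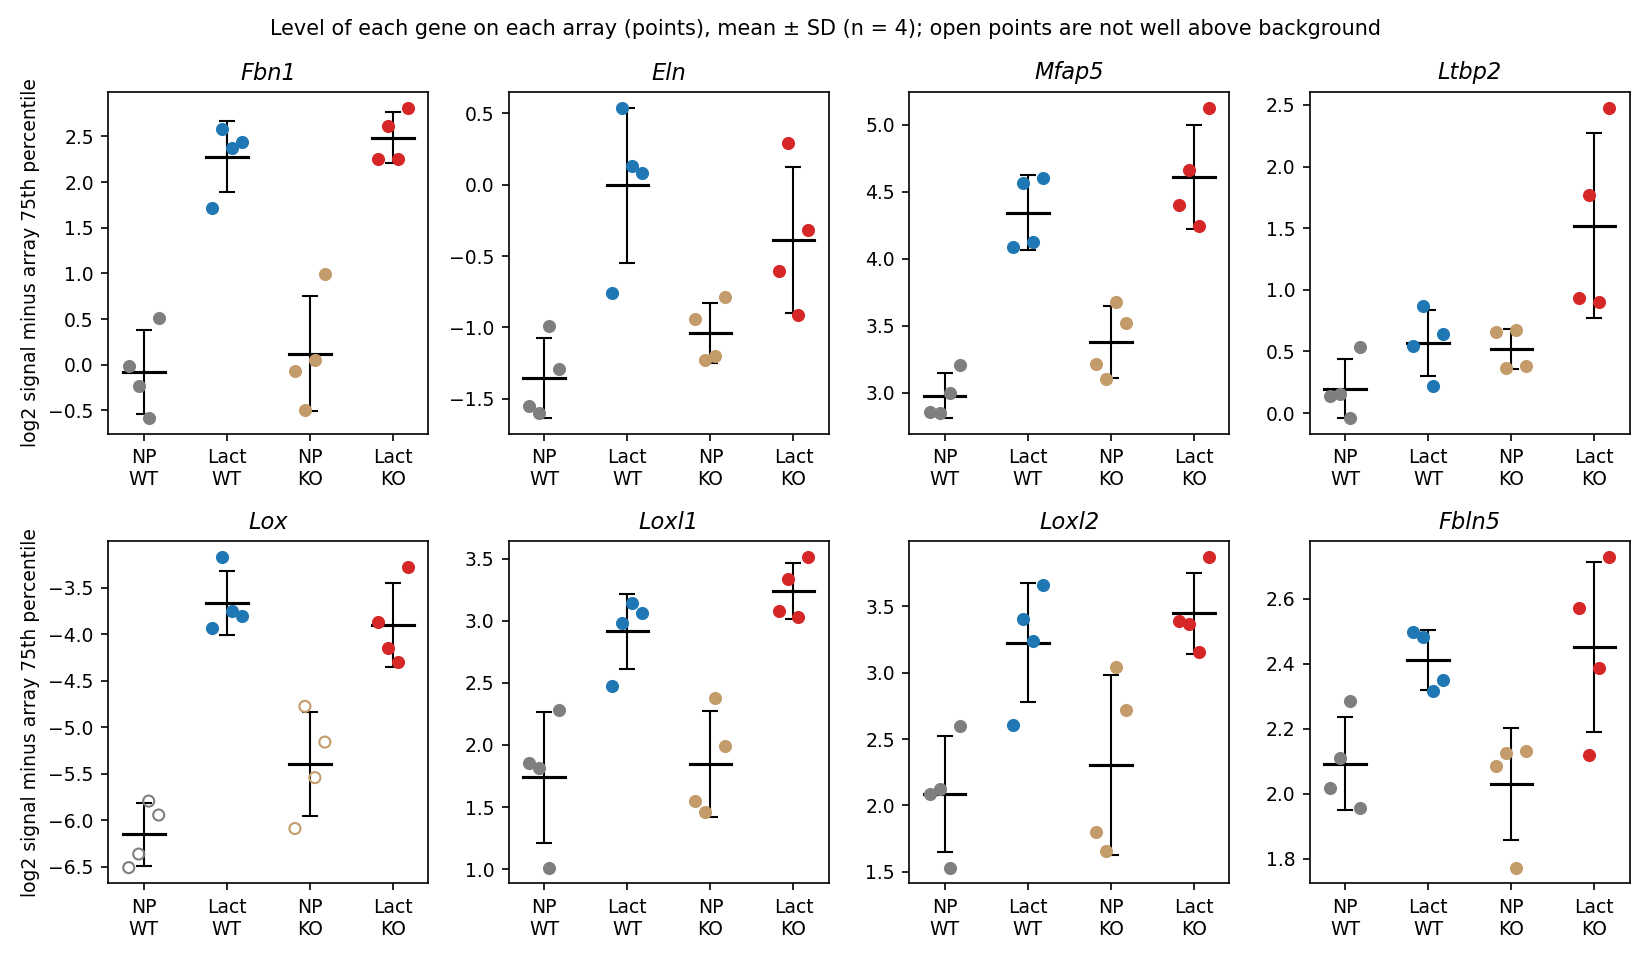
Level of each of the 8 genes (log2 signal less the array's upper quartile, own axis per gene) on each of the 16 arrays, in nulliparous (NP) and lactating (Lact) wild-type (WT) and knockout (KO) mice; bars are mean ± SD (n = 4) and open points are not well above background. Lactating points lie above nulliparous points in both genotypes for Fbn1, Mfap5, Loxl1 and Loxl2, the nulliparous points of Lox are all open, and Ltbp2 is highest in lactating knockout mice.

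Fbn1 encodes fibrillin-1, the main building block of microfibrils. In nulliparous wild-type mice its levels were -0.01, -0.23, -0.59 and 0.51, and in lactating wild-type mice 1.71, 2.58, 2.38 and 2.44. In nulliparous knockout mice they were -0.07, -0.50, 0.05 and 0.99, and in lactating knockout mice 2.25, 2.62, 2.25 and 2.82. Every lactating array was above every nulliparous array, and the genotypes overlapped within each state. Group means in rising order were -0.08 ± 0.46 (SD, n = 4) in nulliparous wild-type, 0.12 ± 0.63 in nulliparous knockout, 2.28 ± 0.39 in lactating wild-type and 2.49 ± 0.28 in lactating knockout mice. The step between the 2 states alone exceeded the spread. The rise was 2.36 ± 0.30 (SE) in wild-type mice, or 5.13-fold, with a limma adjusted p of 9.00e-05. In knockout mice it was 2.37 ± 0.30, or 5.16-fold, with a limma adjusted p of 0.000437. Within slides 1 and 2 the rise was 2.27 and 2.45 in wild-type and 2.72 and 2.01 in knockout mice. The highest nulliparous value belonged to nulliparous knockout replicate 4, which was 1.16 above the mean of its group's other arrays, and without it the knockout rise was 2.66.

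A promoter window is shown for Fbn1, the gene with the largest well-measured rise in both genotypes, and for Ltbp2, the gene called in knockout mice alone. Of the 8 genes, 3 matched the RefSeq promoter table of build GRCm38.p6. Each window holds the 250 bases upstream of the annotated start, on the minus strand and written 5′ to 3′ along the gene. The 5 short motifs named after the sequences were searched on both strands, and capitals mark the matches.
Fbn1 (chr2:125506439-125506688): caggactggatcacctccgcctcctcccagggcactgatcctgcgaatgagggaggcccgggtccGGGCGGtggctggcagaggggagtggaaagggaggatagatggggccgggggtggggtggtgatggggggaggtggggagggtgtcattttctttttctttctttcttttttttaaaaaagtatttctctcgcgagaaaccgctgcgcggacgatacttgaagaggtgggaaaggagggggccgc
Ltbp2 (chr12:84876492-84876741): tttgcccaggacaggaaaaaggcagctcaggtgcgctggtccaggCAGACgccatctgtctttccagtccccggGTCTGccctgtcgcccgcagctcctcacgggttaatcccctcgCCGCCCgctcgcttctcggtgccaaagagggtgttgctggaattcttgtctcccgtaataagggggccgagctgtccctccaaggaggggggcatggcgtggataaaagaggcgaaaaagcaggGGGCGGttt
The motifs were the TATA box TATAAA, the GC box GGGCGG, the TEAD element GGAATG, the SMAD element CAGAC and the AP-1 element TGANTCA. Fbn1 held 1 GC box, and Ltbp2 held 2 GC boxes and 2 SMAD elements, none overlapping another. Of 32851 windows of the same length, 32.7% held the GC box and 42.2% the SMAD element. The windows were 59.2% and 61.6% G and C, beside a median of 52.4% over all windows. A match describes the letters alone.

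Mfap5, also called MAGP-2, encodes a small glycoprotein bound along microfibrils. Its levels were 2.85, 2.85, 3.00 and 3.21 in nulliparous and 4.09, 4.57, 4.12 and 4.60 in lactating wild-type mice. They were 3.21, 3.10, 3.67 and 3.52 in nulliparous and 4.40, 4.66, 4.24 and 5.13 in lactating knockout mice. Lactating arrays were again all above nulliparous ones, and the 4 group means rose in the order nulliparous wild-type, nulliparous knockout, lactating wild-type and lactating knockout. Mfap5 rose by 1.37 ± 0.19 (SE), or 2.58-fold, in wild-type mice (limma adjusted p = 0.000136). It rose by 1.23 ± 0.19, or 2.35-fold, in knockout mice (limma adjusted p = 0.000645). Slides 1 and 2 gave 1.48 and 1.26 in wild-type and 1.38 and 1.09 in knockout mice.

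Ltbp2 encodes a fibrillin-like microfibril protein which, unlike its relatives, does not bind latent TGF-β. Wild-type levels were 0.14, 0.16, -0.04 and 0.53 in nulliparous mice and 0.55, 0.87, 0.22 and 0.64 in lactating mice. Knockout levels were 0.65, 0.37, 0.67 and 0.38 in nulliparous mice and 0.94, 1.77, 0.90 and 2.48 in lactating mice. Lactating knockout arrays were all above every other array, and 2 of them, replicates 2 and 4, stood well above their own group's other members. The wild-type groups overlapped, with a difference of 0.37 ± 0.28 (SE), a 95% interval of -0.23 to 0.97 and a limma adjusted p of 0.286. In knockout mice Ltbp2 rose by 1.00 ± 0.28, or 2.00-fold (limma adjusted p = 0.0104), which missed the threshold at 0.60 (adjusted p = 0.0665) when arrays were centred on fibroblast markers. Slides 1 and 2 gave 0.56 and 0.18 in wild-type and 0.84 and 1.16 in knockout mice. Group means were 0.20 ± 0.24, 0.52 ± 0.17, 0.57 ± 0.27 and 1.52 ± 0.75 (SD, n = 4) in nulliparous wild-type, nulliparous knockout, lactating wild-type and lactating knockout mice, and the middle pair lay within each other's spread.

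Fbln5 encodes fibulin-5, an adaptor that binds tropoelastin, lysyl oxidase-like enzymes and cell-surface integrins. Its lactation differences were the smallest of the 7 measured genes in both genotypes. Levels were 2.02, 2.11, 2.29 and 1.96 in nulliparous and 2.50, 2.48, 2.32 and 2.35 in lactating wild-type mice. They were 2.09, 2.13, 1.77 and 2.13 in nulliparous and 2.57, 2.12, 2.39 and 2.73 in lactating knockout mice. The wild-type groups did not overlap, by a margin of hundredths between 2.29 and 2.32, and the knockout groups overlapped through lactating replicate 2. Fbln5 was 0.32 ± 0.13 (SE) higher in lactation in wild-type mice, or 1.25-fold (limma adjusted p = 0.0475). It was 0.42 ± 0.13 higher in knockout mice, or 1.34-fold (limma adjusted p = 0.0150). The wild-type call was lost in 18 of 30 alternative fits, among them slide as a block (adjusted p = 0.0545), with a range of adjusted p from 0.00980 to 0.508 over the 30. It was lost without any 1 of nulliparous wild-type replicates 1, 2 and 4, lactating wild-type replicates 1 to 4, nulliparous knockout replicates 1 and 2 or lactating knockout replicates 1 and 3, with changes of 0.27 to 0.35. The knockout call was lost in 6 of 30, with a range of adjusted p from 0.00419 to 0.388. These were the fits without nulliparous replicate 3 (0.34, adjusted p = 0.05001), without lactating replicate 4 (0.33, 0.0523), with only the groups compared (0.0576), with the mean of all probes (0.33, 0.388) and within either slide (0.241 and 0.334). The mean of all probes took in a second Fbln5 probe that was well above background on 1 array alone. The wild-type call was lost in that fit too (0.61, limma adjusted p = 0.0956). When arrays were centred on fibroblast markers, the changes were 0.04 and 0.02, with adjusted p of 0.848 and 0.931. Slides 1 and 2 gave 0.43 and 0.21 in wild-type and 0.24 and 0.61 in knockout mice.

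Eln encodes tropoelastin, the soluble precursor of the elastic core. In wild-type mice its levels were -1.55, -1.60, -0.99 and -1.29 when nulliparous and -0.76, 0.54, 0.13 and 0.08 when lactating. In knockout mice they were -0.94, -1.23, -1.20 and -0.79 when nulliparous and -0.60, 0.29, -0.91 and -0.32 when lactating. The wild-type groups did not overlap, whereas lactating knockout replicate 3 fell inside the nulliparous range. Eln rose by 1.35 ± 0.27 (SE), or 2.56-fold, in wild-type mice (limma adjusted p = 0.00108). In knockout mice the difference was 0.65 ± 0.27, with a 95% interval of 0.07 to 1.23 and a limma adjusted p of 0.0628. That value passed the threshold without lactating knockout replicate 3 (0.83, adjusted p = 0.0305), without lactating wild-type replicate 1 (0.65, adjusted p = 0.0310), with array weights (adjusted p = 0.0370) and with median centring (0.83, adjusted p = 0.0185), over a range of 0.0185 to 0.448. It fell to 0.43 (adjusted p = 0.200) without lactating knockout replicate 2, and was 0.25 (adjusted p = 0.476) when arrays were centred on fibroblast markers. Slides 1 and 2 gave 1.46 and 1.25 in wild-type and 0.93 and 0.38 in knockout mice. Group means were -1.36 ± 0.28, -1.04 ± 0.21, -0.39 ± 0.51 and 0.00 ± 0.54 (SD, n = 4) in nulliparous wild-type, nulliparous knockout, lactating knockout and lactating wild-type mice. The genotypes overlapped within each state.

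Lox encodes the founding lysyl oxidase, which cross-links both elastin and collagen. Its probe was well above background on none of the 8 nulliparous arrays and on all 8 lactating arrays. Measured wild-type levels were -6.51, -6.37, -5.80 and -5.95 in nulliparous mice and -3.94, -3.17, -3.75 and -3.81 in lactating mice. Measured knockout levels were -6.09, -4.78, -5.54 and -5.16 in nulliparous mice and -3.88, -4.15, -4.30 and -3.28 in lactating mice. The nulliparous values are therefore bounds and have no order. Each dim array was then set at its own detection floor (the faintest signal still well above background there). On that footing the lactating mean of Lox was 1.74-fold higher in wild-type and 1.27-fold higher in knockout mice. These are bounds on the measured group means and carry no error, so they assure no least change. The fit on the measured values gave limma adjusted p of 6.59e-05 and 0.00142, which rest on nulliparous signals below background and show no size of change. Both calls were lost with normexp background correction, where the differences were 0.09 (adjusted p = 0.547) and -0.12 (adjusted p = 0.413). They were also lost with values floored at background, at 0.80 (adjusted p = 0.101) and 0.35 (adjusted p = 0.489). Those floored differences are the bounds above on the log2 scale. Within-slide differences would rest on the same signals and are not given. A second Lox probe was well above background on 3 arrays, all of them lactating, and was not tested.

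Loxl1 encodes the oxidase that works on elastin together with fibulin-5. Its levels were 1.85, 1.81, 1.01 and 2.28 in nulliparous and 2.48, 2.98, 3.14 and 3.06 in lactating wild-type mice. They were 1.55, 1.46, 2.38 and 1.99 in nulliparous and 3.08, 3.33, 3.03 and 3.51 in lactating knockout mice. Lactating arrays were above nulliparous arrays in each genotype. Loxl1 rose by 1.18 ± 0.26 (SE), or 2.26-fold, in wild-type mice (limma adjusted p = 0.00182). It rose by 1.39 ± 0.26, or 2.63-fold, in knockout mice (limma adjusted p = 0.00124). Within slides 1 and 2 the rise was 0.90 and 1.45 in wild-type and 1.70 and 1.09 in knockout mice. A second Loxl1 probe, also above background on all 16 arrays, rose by 1.89 and 2.03, with limma adjusted p of 0.000108 and 0.000401 in a fit over all 28950 probes that passed the filter.

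Loxl2 encodes an oxidase that cross-links collagen IV and fibrillar collagens. Its levels were 2.08, 2.12, 1.53 and 2.60 in nulliparous and 2.60, 3.40, 3.24 and 3.66 in lactating wild-type mice. They were 1.80, 1.65, 3.04 and 2.72 in nulliparous and 3.39, 3.37, 3.16 and 3.87 in lactating knockout mice. The states did not overlap within a genotype, although lactating wild-type replicate 1 and nulliparous wild-type replicate 4 lay within hundredths of each other. Loxl2 rose by 1.14 ± 0.32 (SE), or 2.21-fold, in both genotypes, with limma adjusted p of 0.00838 in wild-type and 0.0103 in knockout mice. Slides 1 and 2 gave 0.90 and 1.39 in wild-type and 1.65 and 0.63 in knockout mice. The other 2 Loxl2 probes moved less. In the fit over all probes, one rose by 0.41 in wild-type and 0.47 in knockout mice (limma adjusted p = 0.0153 and 0.00897). The other changed by 0.37 and 0.67, and was called in knockout mice alone (limma adjusted p = 0.208 and 0.0312).

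**Figure D2:**
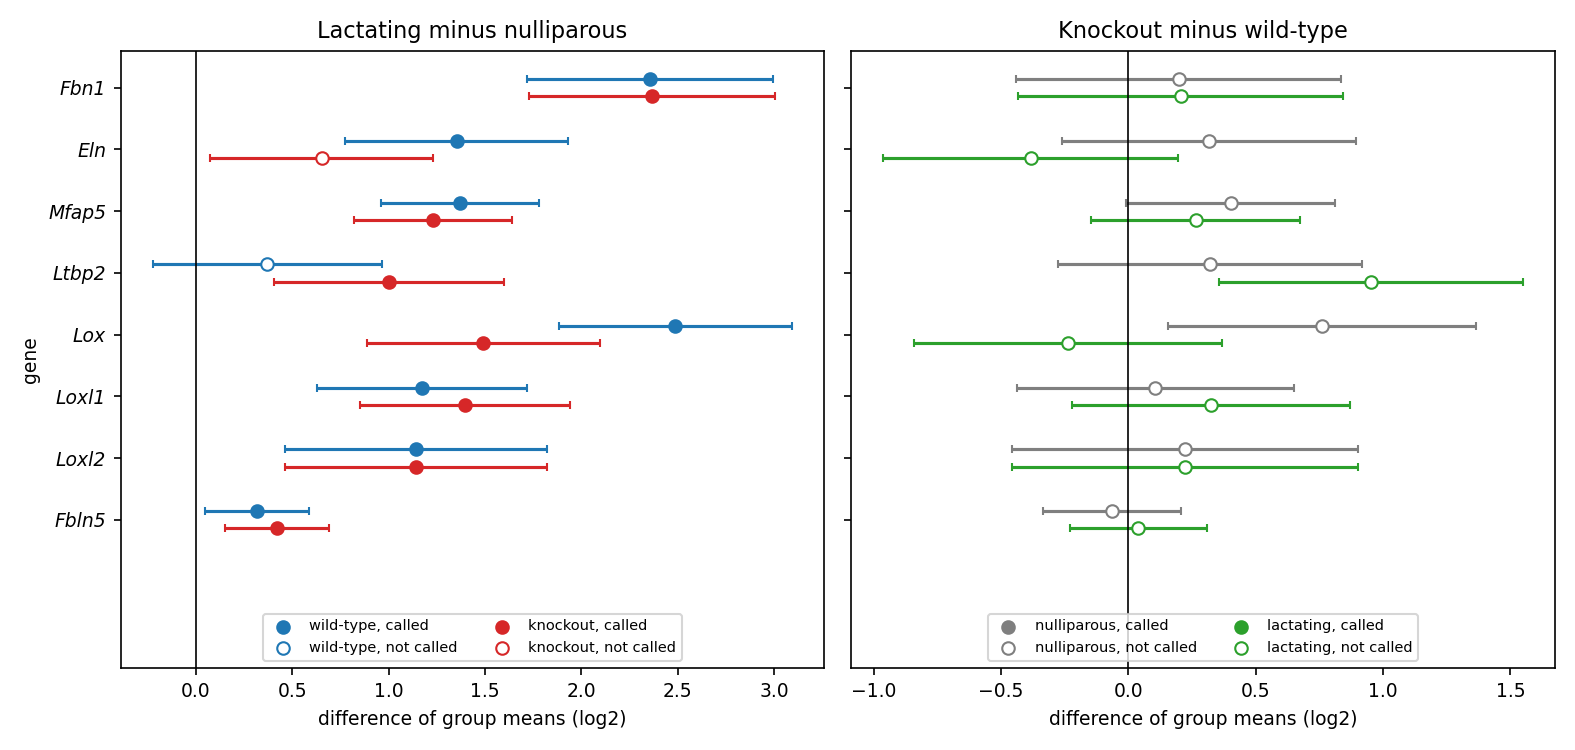
Differences of group means (log2) for each of the 8 genes with 95% intervals from limma: lactating minus nulliparous in each genotype, and knockout minus wild-type in each state; filled points are called at an adjusted p under 0.05. All 8 lactation differences lie above 0 in both genotypes with Eln in knockout and Ltbp2 in wild-type mice not called, those of Lox rest on nulliparous signals below background, and no genotype difference is called.

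Within slide 1 alone, which holds 2 arrays a group, the lactation differences of the 7 genes measured on all arrays were above 0 in both genotypes, and the same held within slide 2 alone. No member was called within slide 2 in either genotype, where limma called 86 genes of all those tested in wild-type and 0 in knockout mice. Nulliparous knockout replicate 4, an array of slide 2, was compared with the mean of its group's other arrays. Of the 7 genes, it lay above that mean for all but Ltbp2, by 0.14 for Fbln5 to 1.16 for Fbn1. For Ltbp2 it lay 0.18 below.

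No gene of the set differed between genotypes at a limma adjusted p under 0.05. In nulliparous mice 0 of 8 were called, where 0.0996% of all genes were, and at an unadjusted p under 0.05 there was 1, Lox, beside 8.63% of all genes. Its measured difference was 0.76 (limma adjusted p = 0.504), between groups that were both below background. Mfap5 was 0.40 higher in nulliparous knockout mice, with a 95% interval of -0.01 to 0.81. The other nulliparous differences between genotypes ran from -0.06 for Fbln5 to 0.32 for Ltbp2 and Eln, and the genotypes overlapped for all 8 genes, where 3.23% of all genes had every knockout array above every wild-type array. With 1 array left out at a time, the difference crossed 0 for Fbn1 (-0.09 to 0.41), Loxl1 (-0.14 to 0.29), Loxl2 (-0.03 to 0.44) and Fbln5 (-0.11 to 0.02). For Eln, Ltbp2 and Mfap5 it stayed above 0. Without nulliparous knockout replicate 4 the knockout mean of Fbn1 was -0.17, beside -0.08 in nulliparous wild-type mice. Loxl2 was at 0.22 on the probe used and at -0.26 and -0.51 on its other 2 probes, none of them called.

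In lactating mice 0 of 8 were called as well, where 0.199% of all genes were. Ltbp2 was the gene with an unadjusted p under 0.05, beside 9.14% of all genes, and every lactating knockout array lay above every lactating wild-type array, as for 3.22% of all genes. It was 0.95 ± 0.28 (SE) higher in lactating knockout mice, or 1.94-fold, with a 95% interval of 0.36 to 1.55 and a limma adjusted p of 0.238. Without lactating knockout replicate 4 it was 0.63 (limma adjusted p = 0.536). Eln ran the other way, 0.38 lower in knockout mice, with an interval of -0.96 to 0.20. The remaining 6 differences ran from -0.24 for Lox to 0.33 for Loxl1. Their intervals reached 0.84 for Fbn1, 0.67 for Mfap5, 0.87 for Loxl1, 0.90 for Loxl2 and 0.31 for Fbln5, so differences of up to those sizes were within the error. Loxl2 was at 0.22 on the probe used, with a lower end of -0.46, and at -0.20 and -0.21 on its other 2 probes.

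The lactation change itself did not differ between genotypes for any of the 8 genes at a limma adjusted p under 0.05, where 0.0924% of all genes were called. For Fbn1 the knockout change minus the wild-type change was 0.01, with a 95% interval of -0.89 to 0.91. For Mfap5 it was -0.14 (-0.72 to 0.44), for Loxl1 0.22 (-0.55 to 0.99) and for Fbln5 0.10 (-0.28 to 0.48). Loxl2 had an interval of -0.96 to 0.96 around 0. The genes called in 1 genotype alone had wide intervals: -0.70 (-1.52 to 0.12) for Eln and 0.63 (-0.21 to 1.47) for Ltbp2, with limma adjusted p of 0.807 and 0.825. Without lactating knockout replicate 4 the value for Ltbp2 was 0.31 (limma adjusted p = 0.972). Lox was the gene with an unadjusted p under 0.05, beside 6.37% of all genes, at -0.998 (-1.85 to -0.14, adjusted p = 0.716), a value that rests on nulliparous signals below background. Eln and Ltbp2 were thus past the threshold in different genotypes without a shown difference between genotypes.

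The rest of the elastic fibre list did not follow one direction. Of 21 other elastic fibre and microfibril genes, 4 rose and 8 fell in wild-type lactation and 5 rose and 5 fell in knockout lactation, with medians of -0.21 and -0.13. Over all 14063 genes tested, 4468 were called higher and 2604 lower in wild-type lactation. In knockout lactation 3591 were called higher and 2612 lower. The counts of each list below are to be read beside these. Adamtsl5, a fibrillin-binding ADAMTS-like protein, rose by 0.70 and 0.44 in wild-type and knockout mice (limma adjusted p = 8.10e-05 and 0.00142). Its relative Adamtsl2, which binds fibrillin and Ltbp1, rose by 1.88 and 1.71 (0.000339 and 0.00125, limma). Ltbp1, which stores latent TGF-β on microfibrils, fell by 0.94 and 0.62 (0.000115 and 0.00217, limma). Fbln1, a fibulin of vessels and basement membranes, fell by 1.25 and 0.50 (0.000133 and 0.0309, limma). Fibrillin-2, fibulin-2 and fibulin-4, encoded by Fbn2, Fbln2 and Efemp2, were not called in either genotype.

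Among other cross-linking and processing enzymes, 12 of 14 were tested, and Loxl4 and Tll2 did not pass the filter. In wild-type mice 6 rose and 2 fell, and in knockout mice 6 rose and 3 fell, with medians of 0.18 and 0.21. Plod1, a lysyl hydroxylase that prepares collagen lysines for cross-linking, rose by 1.51 and 1.10 (limma adjusted p = 0.000193 and 0.00203). F13a1, the A subunit of the transglutaminase factor XIII, rose by 0.67 and 1.05 (0.00166 and 0.000467, limma). Plod2, the lysyl hydroxylase of collagen telopeptides, fell by 0.72 and 0.66 (0.000422 and 0.00139, limma). Its partner chaperone Fkbp10 fell by 0.95 and 0.63 (0.000212 and 0.00358, limma). Loxl3 also rose, by 0.38 and 0.65.

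Of 8 listed enzymes that degrade elastin, 6 were tested. In wild-type mice 5 rose and in knockout mice 4 rose, with none falling, at medians of 0.77 and 0.68, where 31.8% and 25.5% of all genes were called higher. Cela1 was not called in either genotype, at 0.70 and 0.80, nor Elane in knockout mice, at 0.16. The lysosomal protease Ctss rose by 1.72 and 1.53 (limma adjusted p = 0.000379 and 0.00142). Ctsl rose by 0.82 and 0.67, Ctsk by 0.80 and 0.59, and the gelatinase Mmp2 by 0.74 and 0.69. Mmp9 and Mmp12 did not pass the filter. Of 8 integrins that bind such matrix, 7 were tested, with 2 rising and 2 falling in wild-type mice and 1 rising and 2 falling in knockout mice, at medians of -0.13 and -0.21. Itga5, a subunit of the fibronectin receptor, rose by 0.90 and 0.78 (limma adjusted p = 0.000169 and 0.000815), while Itgb5 fell by 0.42 and 0.37 and Itgb1 by 0.52 and 0.53. No gene of these 4 lists was called between genotypes or for the interaction.

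**Figure D3:**
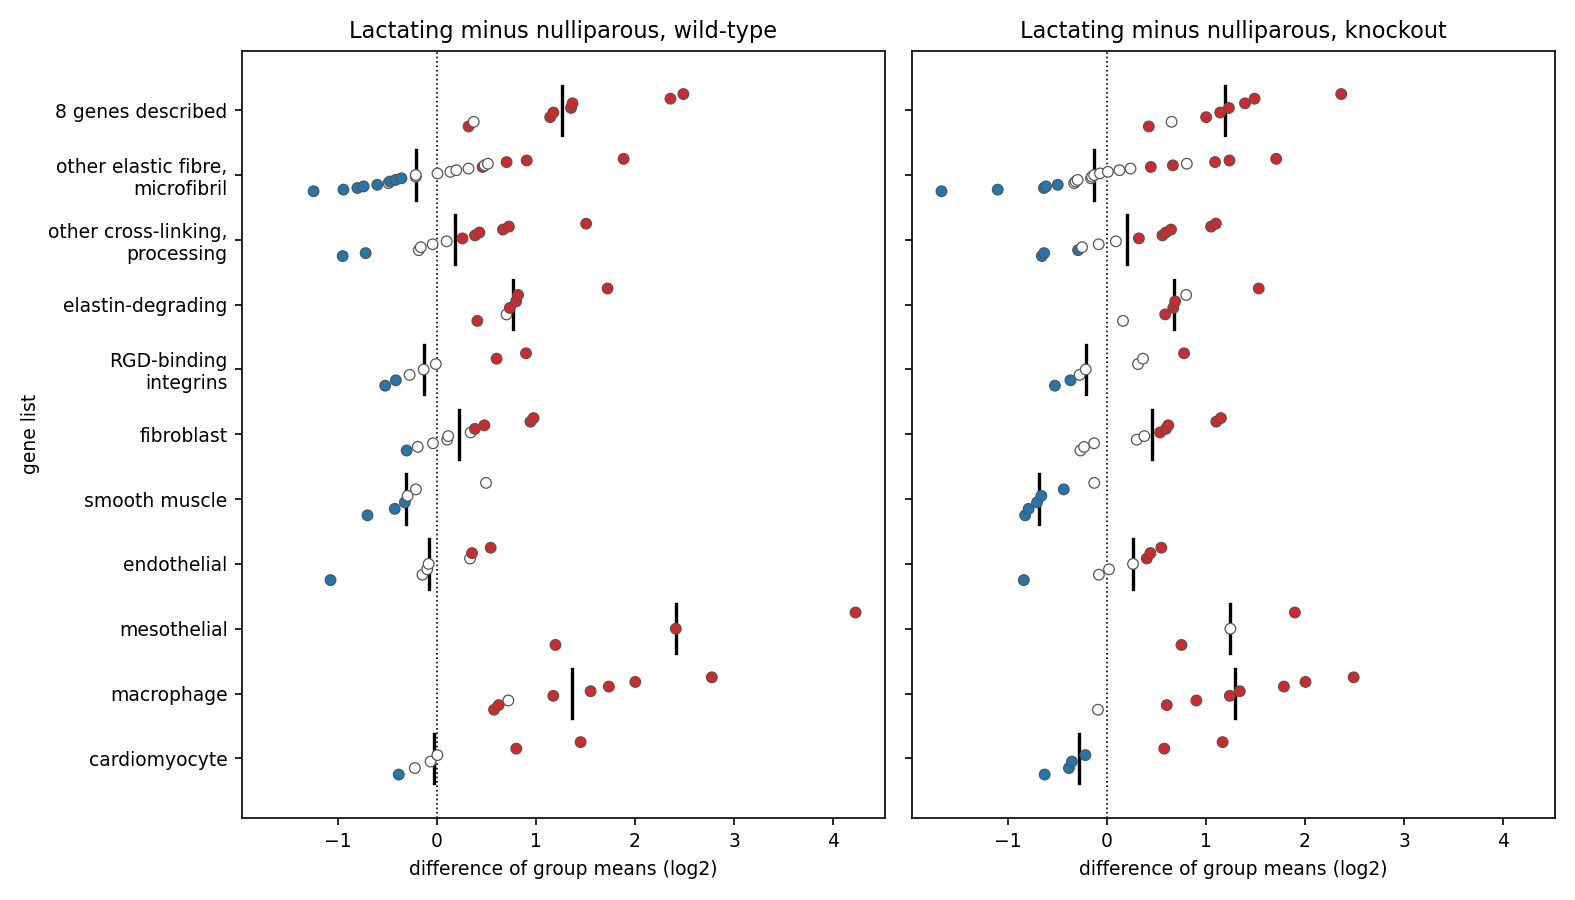
Lactation differences (log2) of each tested gene in the 8 described here and in the other lists, by genotype; red points were called higher, blue points called lower and white points not called, and the black bar is the list's median. The 8 genes have medians of 1.26 and 1.19, Lox included at its measured value, while the other elastic fibre genes spread to both sides of 0.

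Markers of cell types that make or surround this matrix are given beside these changes, and their part in the changes was not tested. Over all genes tested, 31.8% were called higher in wild-type and 25.5% in knockout lactation. Called lower were 2604 and 2612 of 14063. Of 10 fibroblast markers, 4 rose and 1 fell in wild-type lactation and 5 rose in knockout lactation, with medians of 0.23 and 0.46. Their summed linear level, in which the brightest markers weigh most, was 540 to 598 in nulliparous and 497 to 556 in lactating wild-type mice. In knockout mice the sums were 513 to 610 and 504 to 585, and no marker was below background throughout. Tcf21 rose by 0.98 and 1.10 and Col1a1 by 0.94 and 1.15. Pdgfra was -0.04 and -0.13 and was not called. Arrays were also centred on the mean log2 level of the fibroblast markers, each with the same weight, instead of the 75th percentile. Then 6 members, Lox included, were called in wild-type and 5 in knockout lactation, with Fbn1 at 2.08 and 1.96. That centring moved the median of all genes from 0.10 to -0.18 and from 0.06 to -0.34.

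Of 8 macrophage markers, 7 rose in each genotype, with medians of 1.36 and 1.29, and their summed level went from 21.7 to 25.7 in nulliparous to 41.9 to 49.4 in lactating wild-type mice. In knockout mice it was 19.6 to 38.8 in nulliparous mice, the highest from replicate 4, and 47.3 to 56.6 in lactating mice. Lyz2 rose by 2.78 and 2.49 and C1qa by 2.00 and 2.01. Mesothelial markers, of the layer that covers the heart, were tested for 3 of 6 genes, of which 3 were called higher in wild-type and 2 in knockout lactation. With dim arrays set at their detection floor, the lactating wild-type mean was 10.3-fold higher for Msln and 2.87-fold higher for Krt19. These bounds on group means carry no error. Upk1b was below background on every array. Msln and Krt19 were well above background on no nulliparous wild-type array. Their wild-type calls, both in the count above, therefore rest on signals below background. The mesothelial sum was 1.12 to 1.94 in the 3 nulliparous wild-type arrays with a value for every marker, 3.05 to 7.31 in lactating wild-type, 2.10 to 3.28 in nulliparous knockout and 3.92 to 4.54 in lactating knockout mice.

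Among smooth muscle markers, 3 of 6 fell in wild-type and 5 of 6 in knockout lactation, at medians of -0.31 and -0.68. Myh11, the smooth muscle myosin heavy chain, fell by 0.70 and 0.79. Their summed level was 128 to 185 and 113 to 175 in nulliparous and lactating wild-type mice and 144 to 204 and 123 to 134 in knockout mice. Of 7 endothelial markers, 2 rose and 1 fell in wild-type and 3 rose and 1 fell in knockout mice, with sums of 40.6 to 67.7 over all arrays. Of 6 cardiomyocyte markers, 2 rose and 1 fell in wild-type and 2 rose and 4 fell in knockout mice. All 3 atrial markers were called lower in knockout lactation and 2 of 3 in wild-type lactation. The atrial sum of nulliparous knockout replicate 4 was 2.68, beside 10.65 to 23.25 in its group's other arrays. Lactating knockout mice had sums of 2.80 to 3.49. Between genotypes in lactating mice, 4 of 4 tested adipocyte markers were called lower in knockout mice (0.199% of all genes were called). Their sums were 3.42 to 9.09 in wild-type and 0.298 to 0.420 in knockout mice. In nulliparous mice 2 of 4 were called lower (0.0996% of all genes were called), with sums of 3.15 to 5.33 and 0.673 to 1.59. Ltbp2 was 0.95 higher in lactating and 0.32 higher in nulliparous knockout mice, called in neither, and a link to these markers was not tested.

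The members varied together across mice to differing degrees. Over the 16 arrays the Pearson correlation of log2 levels among the 7 genes measured on all of them ran from 0.46 to 0.96 over 21 pairs, with a median of 0.70. These arrays share the lactation contrast, so the same was computed on deviations from group means, where it ran from -0.51 to 0.91 with a median of 0.44. Loxl1 and Loxl2 were the closest pair on both measures, at 0.96 and 0.91. Mfap5 and Ltbp2 followed on the deviations at 0.79, and Fbn1 correlated with Loxl2 at 0.78 and Loxl1 at 0.74. Fbln5 was at -0.51 with Loxl1, -0.31 with Loxl2, -0.17 with Fbn1, -0.13 with Eln, 0.01 with Mfap5 and 0.06 with Ltbp2. Its value with Lox, 0.50, rests in part on signals below background, as do the other pairs of Lox. The points share the array's scaling and RNA sample, and the values are descriptions of 16 mice.

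**Figure D4:**
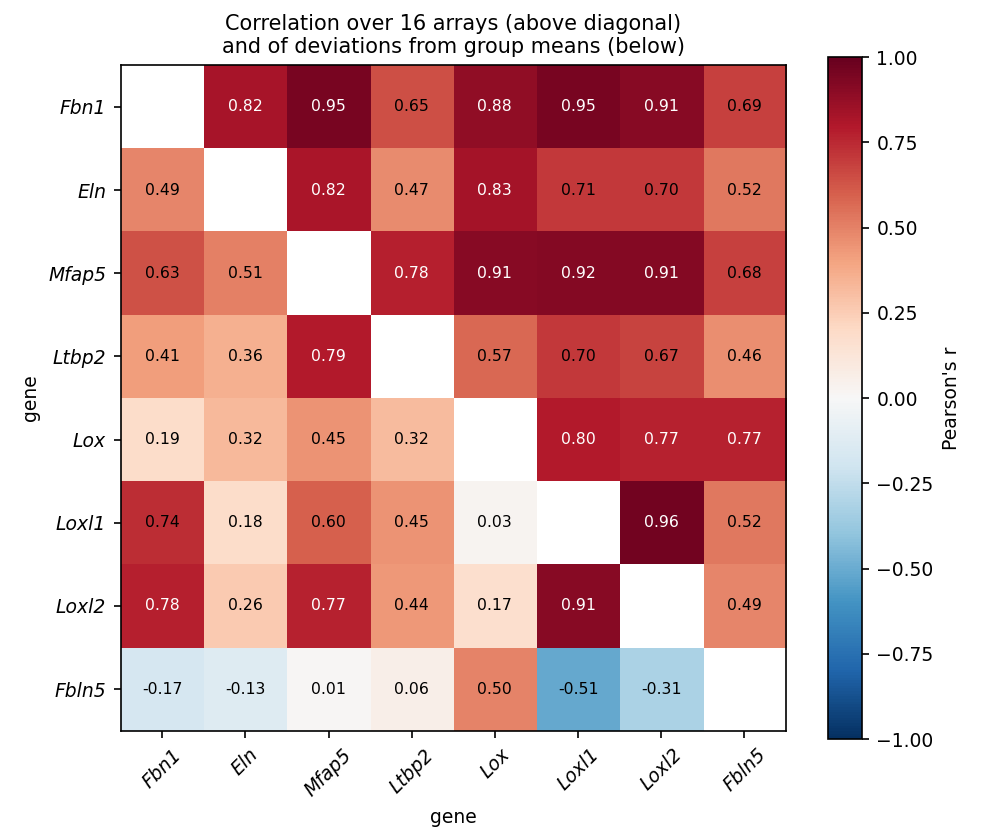
Pearson correlation between each pair of the 8 genes over the 16 arrays (above the diagonal) and of deviations from group means (below the diagonal). Loxl1 and Loxl2 give the highest value on both sides, 0.96 and 0.91, and Fbln5 is below 0 with Fbn1, Eln, Loxl1 and Loxl2 on the deviations; pairs with Lox include 8 arrays below background.

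Among 13965 other genes, those closest to each member were named over the 16 arrays and on the deviations from group means. Fbn1 was closest to S100a11 (r = 0.98) and Slc39a6 (0.98), and on the deviations to Rflnb (0.96). Eln was closest to Rcan1, an inhibitor of calcineurin, on both measures (0.94 and 0.82), with Ess2 next over the arrays (0.89). Mfap5 was closest to Nbl1, a secreted BMP antagonist, on both measures (0.98 and 0.87), with Uck2 next (0.96). Ltbp2 was closest to Atp6v0a4 (0.90) and Pamr1 (0.88), and on the deviations to Msx1 (0.88). For Lox, whose values on the 8 nulliparous arrays are below background and have no order, no neighbours are given. Loxl1 was closest to 1810055G02Rik (0.97) and Cfl1 (0.97), and on the deviations to Pcdh12 (0.97). Loxl2 was closest to Cfl1 (0.97) and Col4a2 (0.96), a chain of the collagen IV it cross-links, and on the deviations to Col1a1 (0.96), a chain of collagen I. Fbln5 was closest to Pla1a (0.88) and Mast3 (0.88), and on the deviations to Dlk1 (0.88). Each value is the highest of 13965 and describes likeness over the same 16 arrays.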

How the data were processed

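Per the submitters' processing notes, Agilent Feature Extraction (version 10.7.3.1) made the 1 scanner file per array that the authors deposited. Per the file headers, its processed signal is a background-subtracted linear intensity, not scaled between arrays, from 200 ng of Cy3-labelled total RNA per the labels' protocols. Each array had 62976 spots, 59305 of them non-control, which gave 55681 probes, 28026 with a symbol through RefSeq accessions. Control spots and outlier values were left out, and no probe was saturated. A table of log2 values that the authors deposited as well has no label for its scale, so it was compared with the scanner values; its columns matched log2 intensity minus the array's 75th percentile minus the mean of nulliparous wild-type arrays (r = 1), with column medians of -0.382 to 0.0318, and served as an alternative.

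Here log2 intensity minus the array's 75th percentile was fitted with limma 3.58.1 in R 4.3.3 over all 16 arrays (12 residual degrees of freedom), on genes well above background on all 4 arrays of a group. The p-value was adjusted by Benjamini-Hochberg over 14063 genes and called under 0.05. The fit was checked on simulated data. Precision is limited by the number of arrays.

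The members and lists were chosen with earlier results of these data known. Named were the 8 genes, up to 4 called genes per list by smallest adjusted p (other list members named were chosen after their values were seen), and each gene's closest neighbours (not those of Lox, measured on 8 arrays alone). Same-numbered arrays correlated at -0.14 to 0.18 in their deviations (median 0.03), and other pairs at -0.28 to 0.25 (median -0.01). Above 0.1 were 8 of 24 same-numbered and 10 of 72 other pairs. All same-numbered pairs share a slide and only some of the others do, so this comparison does not separate replicate number from slide. The labels name no pairing, so the main fit used none, and replicate number as a block was an alternative. Alternatives were normexp (offset 50), quantile normalization, median centring, other filters, all probes, the groups compared alone, trend and robust, array weights, replicate and slide blocks, each slide, the authors' table and each array left out. Centring on fibroblast markers, flooring and fits of each probe were added after seeing the data. Figures used matplotlib 3.10.9.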

Additional observations from a re-analysis of the deposited data

Results flagged for a closer look

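Fbln5 in nulliparous knockout replicate 3 had a level of 1.77, below the 2.09 to 2.13 of the other arrays of its group. The gap to its nearest neighbour took up 0.87 of the group's range. It was 1 of 32 groups of 4 arrays examined over the 8 genes, and chance sets about 1 in 20 such groups apart. No lactation change of the 8 genes differed between genotypes at an adjusted p under 0.05.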

How the results depend on the processing

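The count of members called, Lox included, was 7 in wild-type and 7 in knockout lactation, and stayed at 6 to 7 and 5 to 8 under every alternative run except slide 2 alone, where it was 0 and 0. For the 7 genes other than Lox it was 5 to 6 and 4 to 7, slide 2 alone left out. With each array left out in turn it was 6 to 7 and 6 to 8. Slide 2 alone holds 2 arrays a group, and called 86 and 0 genes of all tested beside 7072 and 6203. The counts between genotypes and for the interaction were 0 throughout. The replicate block called 6 members in wild-type mice, losing Fbln5 (adjusted p = 0.0696), and 7 in knockout mice. It moved no other call of a member. Of 16 arrays, 7 correlated best with an array of their own number, which shared their slide. Lox in knockout lactation turned to -0.12 with normexp; the cause was not tested. Median centring moved the median of all genes from 0.10 to 0.28 in wild-type and from 0.06 to 0.24 in knockout lactation. Lox had no value with the filter on all 16 arrays. Over all genes, calls between genotypes were 14 in nulliparous and 28 in lactating mice, and 13 for the interaction, against 256, 211 and 77 with array weights. The nulliparous count fell to 5 with the filter on all 16 arrays, and the lactating and interaction counts to 4 and 1 within slide 2. Of the 8 genes, Lox alone was limited by signal over background on the probe used. The second probes of Fbln5 and Lox, which enter the mean of all probes, were well above background on 1 and 3 arrays.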
